A study of Equus caballus with 8 samples.

Results

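The genes described here act in the cell division cycle and in DNA replication. They were chosen by symbol from a list of 58 genes, and 57 of them had a value among the 15266 named genes. CDKN2A had none and was not analysed here. The 57 genes were taken in 4 groups by role, namely 16 genes of S phase and DNA replication, 24 mitotic genes, 12 genes of G1 (cyclins D and E, their kinases, the phosphatase CDC25A, the transcription factor E2F1 and the pocket proteins RB1 and RBL1), and 5 inhibitors of cyclin-dependent kinases (CDKs). All 57 passed the filter on low values, which kept the 14907 genes that reached a normalized count of 10 in 4 or more libraries.

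The cells were BM-MSCs (mesenchymal stem cells derived from bone marrow), grown from the sternal marrow of 4 adult horses called D, J, L and W. The marrow of each horse was divided, and 1 portion was left untreated while the other received 1 ng/ml human recombinant TGF-β2. The 4 untreated and 4 TGF-β2-treated libraries could thus be paired by horse. The methods give the treatment as lasting 3 passages before RNA-sequencing. Both groups grew in low glucose DMEM with fetal bovine serum and basic fibroblast growth factor and were passaged before confluence, and the RNA was taken at passage 3 or 4, without the passage of each library being given. The comparison asked how prolonged TGF-β2 treatment altered the RNA of the cells.

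A dividing cell commits to S phase when D-type and E-type cyclins, bound to their CDKs, phosphorylate RB1 and release E2F factors, which switch on the genes for DNA replication. The helicase subunits MCM2 to MCM7 are then loaded on DNA and fired, and a later wave of genes driven by MYBL2 and FOXM1 supplies the mitotic kinases, the kinetochore and the spindle. CDK inhibitors hold this program back, and TGF-β is known in many epithelial cells to slow the cycle through such inhibitors, whereas mesenchymal cells can respond with growth or with arrest. In bulk RNA, a change in the share of cells in cycle and a change in the RNA per cycling cell cannot be told apart.

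The libraries held 39184554 to 57228675 reads counted to named genes, of which FN1, COL1A1 and COL1A2 together took 0.881% to 6.27% in the untreated and 10.3% to 14.4% in the treated ones. The mesenchymal markers ITGB1, CD44, THY1, ENG, NT5E and PDGFRB had normalized counts of at least 1609 in every library. Of these 6, THY1 was called lower (log2 fold change -2.21, limma adjusted p = 0.00203), PDGFRB (-0.71) and ENG (-0.42) fell and ITGB1 rose (0.91) without reaching the fold threshold, and CD44 and NT5E did not pass the test. Of 12 haematopoietic markers, 10 were measured, and their summed normalized counts were 553 to 2794 in the untreated and 404 to 881 in the treated libraries. CD68 alone had 362 to 2437, while PTPRC ranged from 1.19 to 109.7, CD163 was 0 in untreated horse J, and CD163, SPI1, TYROBP and LAPTM5 were 0 in treated horse D. Of the 7 haematopoietic markers tested, 2 (ITGB2 and LAPTM5) fell with treatment. Of 8 endothelial markers, 3 were measured, with sums of 32.5 to 395 in the untreated and 501 to 966 in the treated libraries. ERG made up most of these sums (25.4 to 368 untreated and 471 to 928 treated) and rose. KDR rose at a low level (1.01 to 14.8 untreated and 15.5 to 40.7 treated), and CDH5, at 6.09 to 23.8, did not pass the test (limma adjusted p = 0.264). The part of any haematopoietic or endothelial cells in the results below was not tested. Among all genes tested, 14.1% were called differentially expressed, 6.83% higher and 7.31% lower after TGF-β2, where a call needed a limma adjusted p under 0.05 with the horse as a block and a log2 fold change beyond 1 in either direction. Here "rose" and "fell" are used of genes with an adjusted p under 0.05. The replicate was the horse, and all p-values printed below are Benjamini-Hochberg adjusted over the 14907 genes.

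The cell-cycle genes as a whole did not move in 1 direction with TGF-β2. Of the 57 genes, TYMS of the S-phase group, CDC25B of the mitotic group and the CDK inhibitor CDKN1B were called, all lower. These are 3 of 57, where 14.1% of all tested genes were called and 7.31% were called lower. None was called higher by limma, by DESeq2 or by edgeR with the horse in the model, while 5 genes were higher at an unadjusted p under 0.05 in limma, 8 in DESeq2 and 4 in edgeR, where 22.4%, 23.1% and 22.1% of all tested genes were. DESeq2 called 15.7% and edgeR 13.8% of all tested genes. Without a threshold on the fold, 5 of the 57 genes passed an adjusted p of 0.05, where 30.9% of all tested genes did, and all 5 fell, the others being CDKN1A and RB1. DESeq2 with the horse passed 10 genes at any fold, 6 lower and 4 higher, where it passed 38.7% of all tested genes. Leaving out 1 horse changed the number at any fold to 3 without D, 9 without J, 3 without L and 2 without W, and TYMS was the 1 gene that passed in all 4 of these fits. The treated and untreated libraries did not overlap for 4 of the 57 genes (TYMS, RB1, CDKN1A and CDKN1B), all lower, against 13.9% of all tested genes that were lower without overlap.

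**Figure D1:**
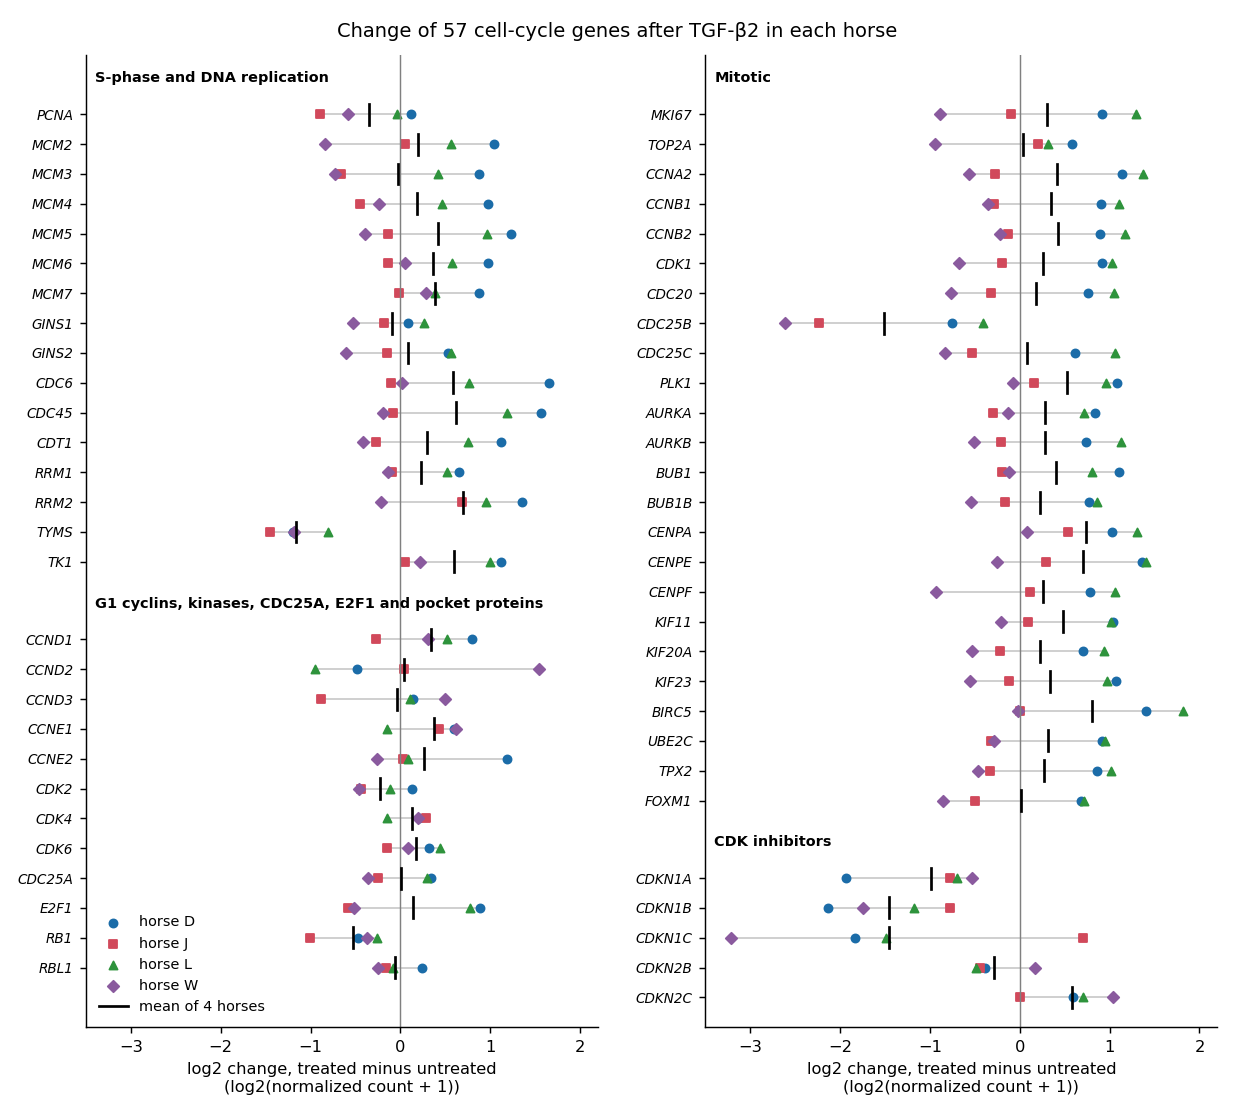
Log2 change (treated minus untreated, on log2(normalized count + 1)) of the 57 genes in each of the 4 horses, with 1 symbol per horse and a bar at the mean. Most S-phase and mitotic genes lay to the right of 0 in horses D and L (38 and 37 of 40) and to the left in J and W (30 and 35 of 40), whereas TYMS, CDC25B, CDKN1A, CDKN1B and RB1 lay to the left in every horse.

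Within the S-phase group, the median log2 fold change over the 16 genes was 0.26, against 0.01 over all tested genes, and it became -0.05, against -0.30, when reads were scaled to the library total. Of the 16 genes, 1 fell (TYMS), where 15.3% of all tested genes fell. The other 15 did not pass the test, with log2 fold changes from -0.35 (PCNA, the sliding clamp of the DNA polymerases) to 0.70 (RRM2, the regulated subunit of ribonucleotide reductase). The 6 helicase subunits MCM2 to MCM7 had log2 fold changes between -0.02 (MCM3) and 0.42 (MCM5), with limma adjusted p from 0.111 (MCM7) to 0.961 (MCM3). Their changes were not alike between the horses. MCM5 had normalized counts of 1781, 4869, 839 and 786 in untreated horses D, J, L and W and 4189, 4431, 1630.1 and 598 in the same horses after TGF-β2. It was therefore higher with treatment in horses D and L and lower in J and W, and the untreated library of horse J was above all 4 treated ones.

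The factors that load and fire the helicase also differed by horse. CDC6, which loads the MCM ring together with CDT1, had normalized counts of 215, 590.5, 167 and 161 in the untreated horses D, J, L and W and 678, 547, 283 and 163 after treatment. The change was thus large in horse D, at 1.65 on the log2 scale, and close to 0 in J and W, at -0.11 and 0.02. CDC45, a partner of the active helicase, had log2 changes of 1.56 and 1.19 in horses D and L and of -0.09 and -0.19 in J and W. The mean log2 fold changes of CDC6 (0.58, limma adjusted p = 0.216) and CDC45 (0.62, limma adjusted p = 0.224) did not pass the test. GINS1 and GINS2, subunits of the complex that joins CDC45 and the helicase, were at -0.09 and 0.08.

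TYMS encodes thymidylate synthase, which makes dTMP from dUMP by the de novo route. It had normalized counts of 2688, 3669, 1514 and 1627 in untreated horses D, J, L and W and 1177, 1340.4, 863 and 714 in the same horses after TGF-β2. The treated libraries were all below the untreated ones. The mean fell from 2374 ± 1012 to 1024 ± 286 (SD, n = 4), a log2 fold change of -1.16 (SE 0.12, 95% interval -1.47 to -0.85), or 2.23-fold, with a limma adjusted p of 0.00362. The call was made whichever horse was left out. The limma adjusted p was 0.0281, 0.00343, 0.00735 and 0.0313 without D, J, L and W. TK1, the thymidine kinase that makes dTMP by the salvage route, had 1944, 3319, 1062 and 1086 normalized counts untreated and 4212, 3434, 2123 and 1264 treated. It was higher in all 4 horses, by 0.05 (J) to 1.12 (D) on the log2 scale, but the groups overlapped and its mean log2 fold change of 0.60 (95% interval 0.07 to 1.12) had a limma adjusted p of 0.0825. With DESeq2 and the horse in the model the adjusted p of TK1 was 0.0414, while limma gave 0.403 without the block, and 0.260, 0.0306, 0.227 and 0.136 without D, J, L and W.

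RRM2 had normalized counts of 1672, 2992, 822 and 795 in untreated horses D, J, L and W and 4284, 4818, 1589.9 and 687 after TGF-β2. It was higher in horses D, J and L and lower in W, and its log2 fold change of 0.70 had a limma adjusted p of 0.0894, and 0.275, 0.126, 0.226 and 0.0398 without D, J, L and W. DESeq2 with the horse gave 0.0361, and limma without the block 0.507. RRM1, the large subunit of the same enzyme, was at 0.23 (limma adjusted p = 0.324). TYMS also differed from its own group in every horse, but it is the gene of the group called in these same values, so this adds no separate support. Set against the mean change of the other 15 S-phase genes, its change was -2.13 in D, -1.29 in J, -1.43 in L and -0.90 in W on the log2 scale, and it had the lowest of the 16 changes in each horse.

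In the mitotic group the median log2 fold change over the 24 genes was 0.30 and 23 of the 24 had a positive mean, which became -0.02 and 11 of 24 when reads were scaled to the library total. On that scale the median over all tested genes was -0.30, and 3994 of the 14907 had a positive mean. None of those 23 genes passed the limma test, and 1 gene, CDC25B, fell, where 15.3% of all tested genes fell. MKI67, whose protein Ki-67 marks cycling cells, had normalized counts of 1809, 3314, 873 and 715 in untreated horses D, J, L and W and 3404, 3092, 2151 and 386 after TGF-β2. It was higher in horses D and L, little altered in J and lower in W. The mean was 1678 ± 1193 untreated and 2258 ± 1357 treated (SD, n = 4), a log2 fold change of 0.31 (95% interval -0.62 to 1.23, limma adjusted p = 0.562). This interval holds changes in either direction, up to a doubling and past it, so that the direction of MKI67 was not resolved with 4 horses.

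The kinases and cyclins that drive entry into mitosis did not pass the test either. CDK1 and its cyclins CCNA2, CCNB1 and CCNB2 had log2 fold changes of 0.26, 0.41, 0.34 and 0.43, the Polo kinase PLK1 was at 0.53, and the Aurora kinases AURKA and AURKB were at 0.28 and 0.29. FOXM1, a transcription factor for late cell-cycle genes, was at 0.01 (limma adjusted p = 0.980), and TOP2A, the topoisomerase that disentangles sister chromatids, at 0.04 (limma adjusted p = 0.923). The checkpoint kinases BUB1 and BUB1B were at 0.40 and 0.23, and the motors KIF11, KIF20A and KIF23 at 0.48, 0.22 and 0.34. The highest mean log2 fold changes of the group were those of BIRC5, the survivin subunit of the chromosomal passenger complex (0.80, limma adjusted p = 0.144), CENPA, the centromeric histone H3 variant (0.74, limma adjusted p = 0.0570), and the kinetochore motor CENPE (0.70, limma adjusted p = 0.145). CENPA had normalized counts of 475, 601, 173 and 168 untreated and 971, 873, 430.0 and 178 treated in horses D, J, L and W. It was the only mitotic gene higher in all 4 horses, where 26.3% of all tested genes were, and its adjusted p was 0.0123 in DESeq2 with the horse and 0.445 in limma without the block.

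CDC25B was the 1 mitotic gene that was lower in horses D and L, where the other 23 were higher. In J and W, where 17 and 23 of the 24 genes were lower, CDC25B was lower as well. It encodes a phosphatase that removes the inhibitory phosphates from CDK1 and helps to start mitosis. Its normalized counts were 4939, 7061, 1441 and 2545 in untreated horses D, J, L and W and 2918, 1499.9, 1081 and 414.5 after treatment. Each horse was lower after TGF-β2, with log2 changes from -0.41 (L) to -2.62 (W), but treated horses D and J lay above untreated horse L, so the groups overlapped. The mean fell from 3996 ± 2511 to 1478 ± 1059 (SD, n = 4), a log2 fold change of -1.51 (SE 0.40, 95% interval -2.51 to -0.51) with a limma adjusted p of 0.0397. Without the horse as a block the limma adjusted p was 0.137, with no trend in the variance it was 0.0623, and without horse D, J or W it was 0.0816, 0.0713 or 0.136, so that the call was lost in each of these fits. DESeq2 with the horse gave 9.66e-04. Against the mean change of the other 23 mitotic genes the change of CDC25B was -1.68 in D, -2.11 in J, -1.46 in L and -2.15 in W on the log2 scale, and it had the lowest of the 24 changes in each horse. As the gene of the group called in these same values, CDC25B gains no separate support from this. CDC25C, the related phosphatase in the same group, was at 0.08 (limma adjusted p = 0.882), and CDC25A, which acts at the start of S phase, at 0.01 (limma adjusted p = 0.971).

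**Figure D2:**
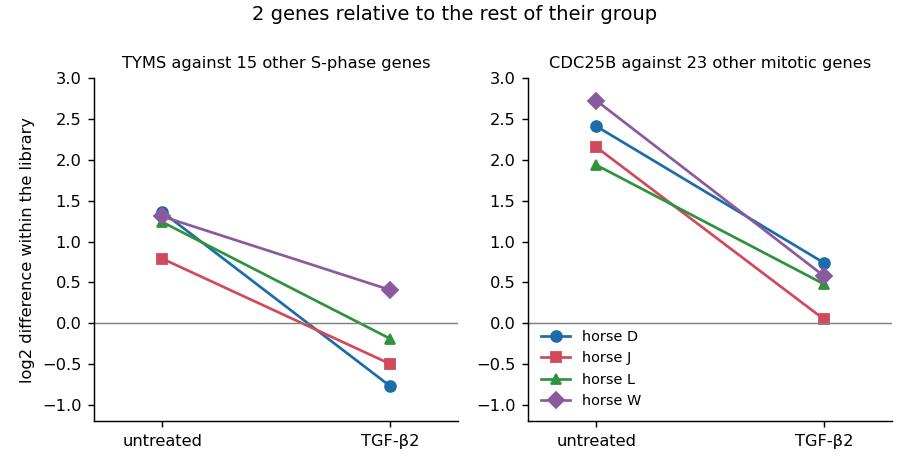
Log2(normalized count + 1) of TYMS minus the mean of the 15 other S-phase genes (left) and of CDC25B minus the mean of the 23 other mitotic genes (right), in the untreated and the treated library of each horse. Both differences were smaller after TGF-β2 in all 4 horses.

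The direction in which the S-phase and mitotic genes changed was not the same in the 4 horses. Of these 40 genes, 38 were higher after TGF-β2 in horse D and 37 in horse L, but 10 in horse J and 5 in horse W. The share of all tested genes that was higher lay near 50% in each horse (50.1%, 49.8%, 50.7% and 49.4% in D, J, L and W). With reads scaled to the library total, 36, 3, 35 and 0 of the 40 genes were higher in D, J, L and W. On that scale 4866, 5094, 3697 and 4080 of the 14907 tested genes were higher in the same horses. The contrast between the horses was thus also there after total scaling. The median change of the 16 S-phase genes was 0.97 in D, -0.14 in J, 0.56 in L and -0.32 in W on the log2 scale. For the 24 mitotic genes it was 0.90 in D, -0.20 in J, 1.02 in L and -0.52 in W. Each horse gave 1 library per condition, so a difference between horses in the response could not be tested.

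The levels also differed between horses before any treatment. In the untreated cells, horse J had the highest normalized count of all 4 horses for each of the 40 genes, where it was highest for 5214 of the 14907 tested genes. Horses L and W were the low ones, with mean log2 levels over the S-phase genes of 9.40 and 9.44 and over the mitotic genes of 8.64 and 8.70. After TGF-β2 those same horses had moved apart, to 9.93 and 9.10 for the S-phase genes and to 9.62 and 8.15 for the mitotic genes. Treated horse W was the lowest of the 4 for each of the 40 genes, where it was lowest for 3738 of the 14907, and treated horse D was the highest for 35 of the 40. The highest untreated library exceeded the lowest by a median factor of 3.22 for the S-phase genes and 4.63 for the mitotic genes, against 1.66 over all tested genes. Untreated horse J also had the highest haematopoietic marker sum of the 8 libraries, 2794, which was 775 after treatment. CD68 alone was 2437 of the 2794. PTPRC (109.7) and ITGAL (53.9) were also highest in that library. The other markers measured were higher in another library, and CD163, CSF1R, SPI1 and TYROBP were at 0 to 1.35 in untreated J. The part of this in the levels of horse J was not tested.

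**Figure D3:**
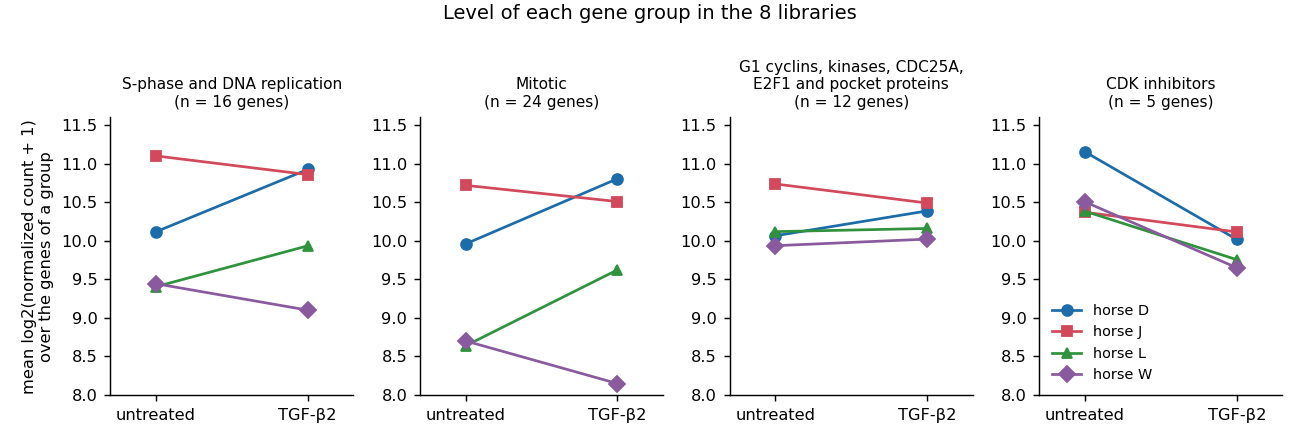
Mean level on the log2(normalized count + 1) scale over the genes of each of the 4 groups, with a line joining the untreated and the treated library of each horse. The S-phase and mitotic lines of horses D and L slope up and those of J and W slope down, whereas all 4 lines of the CDK inhibitors slope down.

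The error of these comparisons is given by the spread between horses. Over the 40 S-phase and mitotic genes the median SE of the log2 fold change was 0.29 and the median 95% interval reached 0.71 to each side. The interval included 0 for 34 genes and included a doubling for 20 of the 40, so that for these 20 genes a mean rise of 2-fold lay within the error. Leaving out horse D or L lowered the group medians and leaving out J or W raised them. The S-phase median was 0.06, 0.44, 0.14 and 0.44 without D, J, L and W, and the mitotic median was 0.10, 0.47, 0.05 and 0.57. The values of single genes were far above the counting floor, the lowest normalized count of the 40 genes in any library being 88.9 (CDC45).

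In the G1 group the median log2 fold change over the 12 genes was 0.09, against 0.01 over all tested genes. With reads scaled to the library total it was -0.23, against -0.30. Of the 12, 1 gene, RB1, fell without reaching the fold threshold, where 15.3% of all tested genes fell at any fold. RB1 encodes the retinoblastoma protein, which binds E2F factors and holds cells in G1. It had normalized counts of 2173, 2595, 1751 and 1885 in untreated horses D, J, L and W and 1563, 1290.0, 1461 and 1456 after TGF-β2. All treated libraries were below all untreated ones. The mean fell from 2101 ± 373 to 1443 ± 113 (SD, n = 4), a log2 fold change of -0.53 (95% interval -0.88 to -0.18, limma adjusted p = 0.0402), and the adjusted p was 0.129 without horse D, 0.0604 without L and 0.113 without W. LPAR6 overlaps RB1 in the RefSeq annotation of assembly TB-T2T, and its own mean normalized count was 94.0 untreated and 73.6 treated. The related pocket protein gene RBL1 was at -0.06 (limma adjusted p = 0.695).

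The D-type cyclins did not pass the test. CCND1 had normalized counts of 18586 to 47476 untreated and 26562 to 39832 treated, with a log2 fold change of 0.33 (limma adjusted p = 0.225, and 0.578, 0.0303, 0.445 and 0.378 without D, J, L and W). CCND2, another D-type cyclin, had normalized counts of 534, 1090.0, 1684 and 586 untreated and 382, 1123, 869 and 1714 treated in D, J, L and W. It was lower in horses D and L and higher in W, whereas most S-phase and mitotic genes were higher in D and L and lower in W. CCND3, CCNE1 and CCNE2 were at -0.03, 0.37 and 0.26, and the kinases CDK2, CDK4 and CDK6 at -0.22, 0.13 and 0.17. E2F1, the E2F factor of the list, had normalized counts of 432, 896, 169.6 and 191 untreated and 799, 598, 291 and 133 treated in D, J, L and W. It was higher in D and L and lower in J and W, and its log2 fold change was 0.14 (limma adjusted p = 0.757).

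The CDK inhibitors had the lowest median of the 4 groups. Of the 5 genes measured, 2 (CDKN1A and CDKN1B) fell at an adjusted p under 0.05 and 1 of these was called, where 15.3% of all tested genes fell and 7.31% were called lower. The median log2 fold change was -0.98, against 0.01 over all tested genes (-1.30 against -0.30 with reads scaled to the library total). CDKN1B encodes p27, which binds and inhibits cyclin E-CDK2 complexes. It had normalized counts of 3593, 1272, 1323 and 2648 in untreated horses D, J, L and W and 821, 744, 585 and 790.5 in the treated libraries. The 4 treated libraries lay close together and below all untreated ones. The mean fell from 2209 ± 1121 to 735 ± 105 (SD, n = 4), a log2 fold change of -1.46 (SE 0.23, 95% interval -2.04 to -0.87) or 2.74-fold, with a limma adjusted p of 0.00996. Without horse W the adjusted p was 0.0624. In the annotation of TB-T2T the gene overlaps LOC111773926, which had no value of its own.

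CDKN1A encodes p21, a CDK inhibitor induced by p53 and, in many cells, by TGF-β. It had normalized counts of 10363, 10783, 8852 and 7503 in untreated horses D, J, L and W and 2717, 6282, 5471 and 5203 after TGF-β2. No treated library reached the lowest untreated one. The mean fell from 9375 ± 1499 to 4918 ± 1538 (SD, n = 4), a log2 fold change of -0.98 (95% interval -1.59 to -0.37, limma adjusted p = 0.0327), just under the fold threshold. The gene was also called under total scaling (-1.30). The decrease was largest in horse D, and without D the log2 fold change was -0.67. Without horse J the log2 fold change was -1.05 and the gene was called (limma adjusted p = 0.0394), and the adjusted p was 0.0670 without L and 0.0801 without W.

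CDKN1C, the gene of p57 and the third member of this family, had normalized counts of 1149, 155, 426 and 553.0 in untreated horses D, J, L and W and 322, 254, 151 and 58.9 after TGF-β2. It was lower in horses D, L and W and higher in J. Its log2 fold change of -1.46 had a wide 95% interval of -2.96 to 0.05 and a limma adjusted p of 0.122, whereas DESeq2 with the horse gave 0.0231. Limma gave 0.165 without the block and 0.305, 0.00940, 0.241 and 0.341 without D, J, L and W, with log2 fold changes of -1.33, -2.18, -1.45 and -0.87. The INK4 genes, which inhibit CDK4 and CDK6, did not pass the limma test. CDKN2B (p15), a well-known target induced by TGF-β in epithelial cells, had 1154, 1159, 1064 and 841 normalized counts untreated and 883, 853, 761 and 944 treated, with a log2 fold change of -0.29 (95% interval -0.63 to 0.06, limma adjusted p = 0.171). CDKN2C (p18) had 1241, 1635, 796 and 697 normalized counts untreated and 1874, 1638, 1297 and 1432 treated. It was higher in horses D, L and W and nearly equal in J, with a log2 fold change of 0.58 (95% interval 0.15 to 1.02), a limma adjusted p of 0.0549 and a DESeq2 adjusted p of 0.0196 with the horse. Limma gave 0.156 without the block and 0.168, 0.00857, 0.151 and 0.184 without D, J, L and W.

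**Figure D4:**
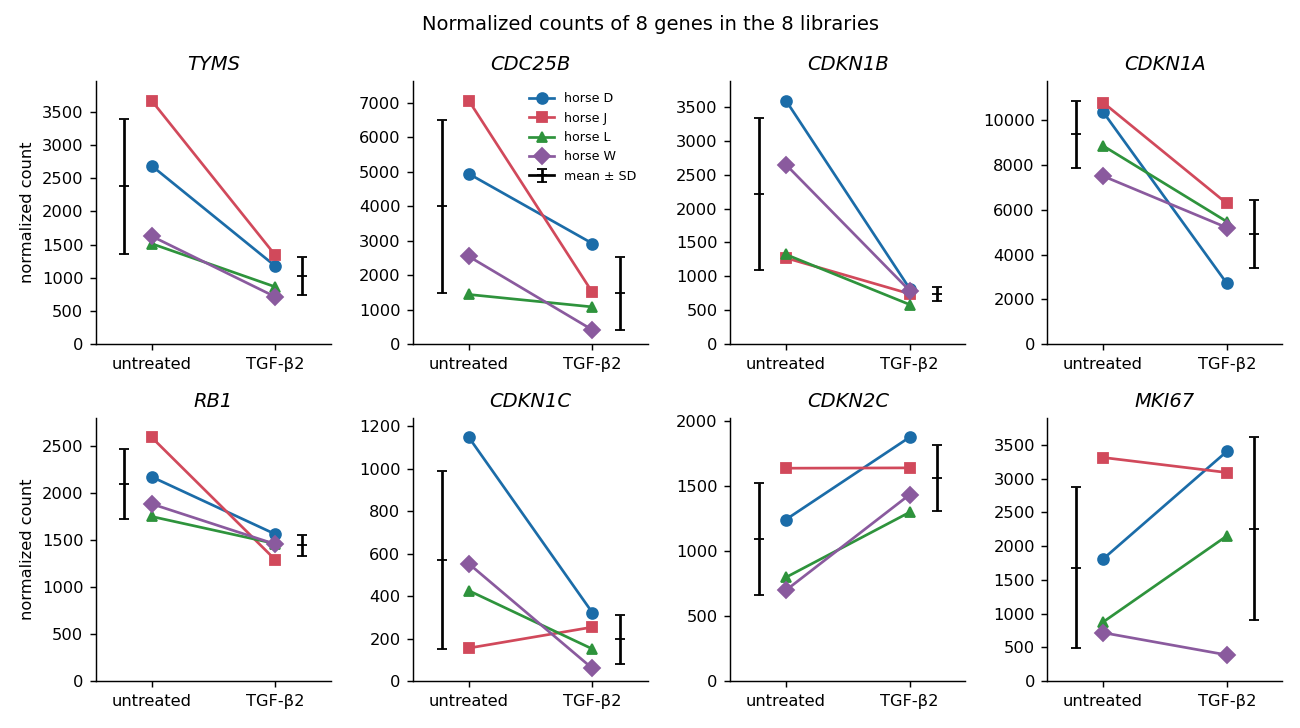
Normalized counts of single cell-cycle genes in each library, untreated and TGF-β2-treated, with lines joining the libraries of 1 horse and a bar and error bar for the mean and SD of 4 horses. TYMS, CDKN1A, CDKN1B and RB1 have no treated library as high as any untreated one, whereas the groups of the other genes shown overlap.

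Other genes of the same pathways, taken from lists set by function, are given beside them. Of 168 such genes with a value past the filter, 10 were called, 7 higher and 3 lower, where 14.1% of all tested genes were called. Among 50 further DNA replication genes, 47 were higher after TGF-β2 in horse D and 41 in L, against 22 in J and 16 in W. Among 80 further mitotic genes the numbers were 76 in D and 77 in L, against 26 in J and 16 in W. With reads scaled to the library total, the counts in D, J, L and W were 41, 11, 23 and 5 for replication and 73, 9, 68 and 7 for mitosis. Of all 14907 tested genes, 4866, 5094, 3697 and 4080 were higher on that scale in the same horses. The 38 further regulators of G1 and arrest were higher for 21, 17, 17 and 21 genes in D, J, L and W.

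**Figure D5:**
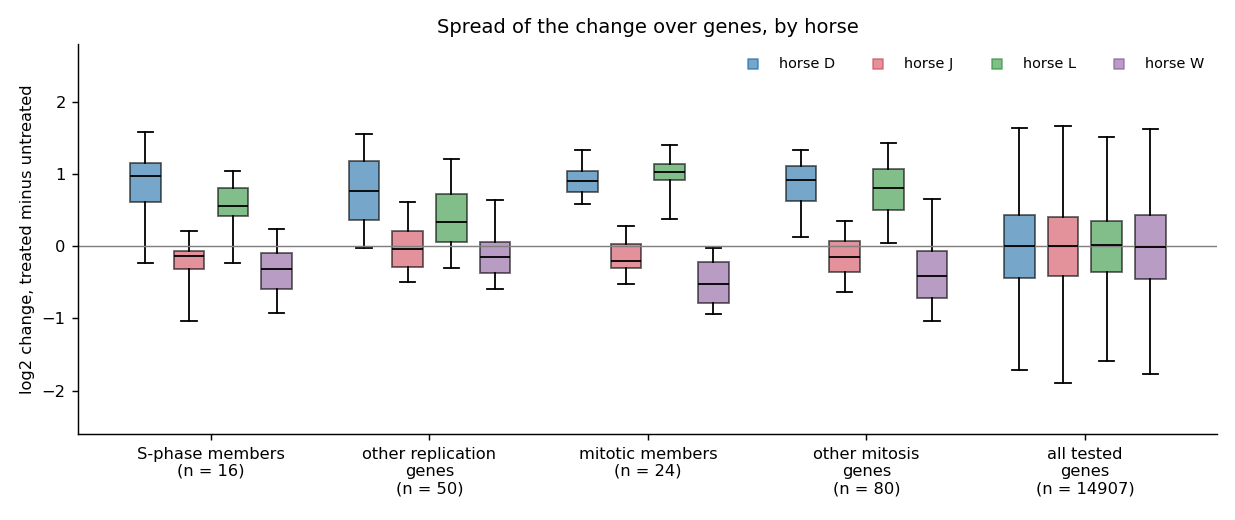
Log2 change (treated minus untreated) over the genes of each list in each horse, with the median as a line, the box from the 25th to the 75th percentile and whiskers from the 5th to the 95th. The medians of the S-phase, mitotic, further replication and further mitosis genes lie above 0 in horses D and L and below 0 in J and W. Those of all tested genes lie near 0. After total scaling (not shown) the median in L was -0.02 for the further replication genes and -0.34 for all tested genes.

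Of the 50 further replication genes, 3 rose past the fold threshold, where 6.83% of all tested genes did. None fell past it in limma, DESeq2 or edgeR. At any fold, 5 rose and 1 fell in limma, where 15.7% and 15.3% of all tested genes did. RFC2, a subunit of the clamp loader, had 375 to 1079 normalized counts untreated and 1108 to 1665 treated, without overlap, a log2 fold change of 1.19 (limma adjusted p = 0.00909, 0.0533 without horse D and 0.0544 without W). TIPIN, which protects stalled forks together with TIMELESS, rose by 1.21 on the log2 scale (limma adjusted p = 0.0122, and 0.0699 without horse W), also without overlap. Under total scaling RFC2 and TIPIN were at 0.88 and 0.90, below the fold threshold. E2F7, a repressor among the E2F factors, had 47.9, 95.6, 47.1 and 47.7 normalized counts untreated and 326, 329.7, 362 and 55.3 treated in D, J, L and W, so that horse W alone stayed near the untreated level. Its log2 fold change of 1.91 had a limma adjusted p of 0.0332, which was 0.0543 without the block, 0.132 without horse D and 0.0991 without L.

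Of the 80 further mitotic genes, 2 rose past the fold threshold, against the same 6.83%. MYBL2, the B-MYB factor that works with FOXM1 on late cell-cycle genes, had normalized counts of 760.5, 1379.5, 535 and 396 untreated and 3675, 3285, 2209.5 and 589 treated. It was higher in every horse, least in W, with a log2 fold change of 1.53 (limma adjusted p = 0.0161, 0.108 without the block, 0.0664 without horse D and 0.0532 without L). FAM83D, a spindle protein, rose by 1.09 on the log2 scale (limma adjusted p = 0.0298, 0.0591 without the block, 0.0512 under total scaling, and 0.121, 0.0690 and 0.108 without horses D, L and W).

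Of the 38 further regulators of G1 and arrest, 2 were called higher and 3 lower, where 6.83% and 7.31% of all tested genes were. PLK3, a Polo kinase of the stress response, had 178 to 336 normalized counts untreated and 583 to 693 treated (log2 fold change 1.46, limma adjusted p = 0.00372). GADD45B, a stress gene known as a TGF-β target, rose by 1.35 on the log2 scale (limma adjusted p = 0.0102, and 0.0505 without horse W). GAS1, named for its high level in growth-arrested fibroblasts, had 17641, 3311, 15203 and 8934 normalized counts untreated and 1305, 1412, 925 and 925 treated, a log2 fold change of -3.07 (limma adjusted p = 0.00878, and 0.0570 without horse W). CABLES1, an adaptor that links CDKs to the kinases that inhibit them, had 108 to 355 normalized counts untreated and 6.01 to 45.3 treated, a log2 fold change of -3.31 (limma adjusted p = 0.00396). BTG1, an antiproliferative gene named here after its values were seen, was the remaining gene called and fell by 1.10 on the log2 scale (limma adjusted p = 0.0185, and 0.0855, 0.0632 and 0.0930 without horses D, L and W).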

How the data were processed

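The deposited table held normalized counts, a signal that is each gene's read count divided by a size factor of the library. Per the labels and the methods, the authors used Trimmomatic 0.36, STAR 2.5.2b with EquCab 3.0, featureCounts of Subread 1.5.2 and DESeq2. Whether counting used strand is not given in the sources used here. Division by the value of 1 read gave whole reads for 100% of the values (tolerance 0.001). A row with no gene name (0.0281% to 0.0531% of a library's reads) was left out.

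Libraries were grouped by the treatment and paired by the horse in the labels. Deviations from the group means correlated at 0.386 to 0.609 across genes between the libraries of a horse. The test was limma 3.58.1 in R 4.3.3 (lmFit, eBayes with trend) on log2(normalized count + 1), with the horse as a block. This scale understates the fold change of low genes. Levels are not compared between genes, since they are not per length. Of the 57 members, 21 overlap another gene in the RefSeq annotation of TB-T2T, and 15 overlap a gene with a value. Called among these genes were ANK3 at CDK1 (log2 fold change 2.05, limma adjusted p = 0.0196), LOC111773899 at CCND2 (1.28, limma adjusted p = 0.0336) and PMEL at CDK2 (-3.39, limma adjusted p = 0.00163). The part of overlapping genes in the values of the members was not tested. The members and lists were chosen with earlier results of these data known. Every member is named or counted, and of each further list up to 4 called genes with the largest absolute fold change are named, with BTG1 added after its values were seen. The alternatives left out the block, set the pseudocount to 0.5 or 5, removed the filter or raised it to 50, scaled the recovered reads by upper quartile, total or TMM, dropped the trend, used DESeq2 1.42.0 or edgeR 4.0.16, changed the thresholds, or left out each horse. On data simulated for the 14907 genes, with 200 changed by a log2 fold change of 2, limma with the horse recovered 200 with 2 other calls. The 40 S-phase and mitotic genes had log2 fold changes from -1.51 to 0.80. The SD of the log2 change over the 4 horses had a median of 0.73 for these 40 genes, against 0.31 over all tested genes. Recovery of log2 fold changes below 2 in size was not tested. Recovery of changes that differ between the horses was not tested either.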

Additional observations from a re-analysis of the deposited data

Results flagged for a closer look

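Within a group of 4 libraries, 6 of the 132 sets of values of members and named genes held 1 library far from the other 3, and chance flags about 1 in 20 such sets. In the untreated cells, horse J was far above the others for MCM4 (4142 normalized counts, others 1247 to 1634), CDC6 (590.5, others 161 to 215), CCND1 (47476, others 18586 to 23005) and E2F7 (95.6, others 47.1 to 47.9). In the treated cells, horse L was far above the others for CDK6 (3239.6, others 1803 to 2031), and horse W was far below them for E2F7 (55.3, others 326 to 362).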

How the results depend on the processing

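Of 1188 values of 66 named genes under the alternatives, 1101 kept their direction and their side of the threshold, 32 lost a call, 6 gained one, and 49 of 26 genes that were not called changed sign. Without the horse as a block, 1709 genes were called against 2108, 2 members against 3 (CDC25B was lost), 7 further pathway genes against 10, and 4 members against 5 passed at any fold. An adjusted p under 0.01 left 1116 genes and 4 further pathway genes, and with no threshold on the fold 4610 genes, 5 members and 21 further pathway genes passed. At any fold, 8 members passed under total scaling, 2 with no trend and 10 with DESeq2 and the horse. The median of the G1 group was -0.23 under total scaling, which shifted the median of all tested genes to -0.30 and left 27.6% of calls higher against 48.3%. With 1 horse left out, 1080 to 2442 genes, 1 to 4 members, 4 to 18 further pathway genes, and 2 to 9 members at any fold passed, each time the fewest without W and the most without J. Without D, 1173 genes, 5 further pathway genes and 3 members at any fold passed, and without L the last of these numbers were 6 and 3. Fits with 1 horse fewer have fewer samples, and the cause was otherwise not tested. Depth limits the precision of genes with few reads, and its part in that of the others was not tested.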
